A study of Mus musculus with 9 samples.

Results

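The metallothionein genes *Mt1*, *Mt2* and *Mt3* are 3 of the 51912 genes in a table of RNA sequencing of embryonic mouse midbrain, and their rows were found by gene identifier. Micro-dissected midbrains of C57Bl/6 embryos at E14.5 were compared between wild-type embryos (+/+), heterozygotes (LacZ/+) and homozygotes (LacZ/LacZ) for a LacZ allele of *Nkx2.9*, with 3 libraries for each genotype. In this allele the first exon of the homeobox gene is replaced by LacZ, LacZ/+ embryos carry 1 such allele and LacZ/LacZ embryos carry no intact one. Each library was made from 2 pooled midbrains, so a value is a mean over embryos and no single animal can be seen. The family was chosen with results of these libraries known, since *Mt3* was selected on its low p between LacZ/LacZ and +/+. The genotype differences of the members are therefore given as a description, with no test.

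Metallothioneins are small cysteine-rich proteins that hold zinc and copper ions in clusters of thiolates. *Mt1* and *Mt2* are expressed in most tissues and are induced by metals, glucocorticoids and oxidative stress, the first of these through the zinc-sensing transcription factor MTF1, which binds metal response elements. *Mt3*, known as growth inhibitory factor, is enriched in the brain, and *Mt4* is a gene of squamous epithelia.

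The cysteine content can be read from the coding sequences, which are shown because they set apart the members whose levels follow. They are spliced from the 3 exons of each main transcript in the GENCODE annotation of GRCm38, run from the start codon to the stop codon on the plus strand of chromosome 8, and have each in-frame TGC or TGT codon, which encodes cysteine, in capitals.

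Mt1: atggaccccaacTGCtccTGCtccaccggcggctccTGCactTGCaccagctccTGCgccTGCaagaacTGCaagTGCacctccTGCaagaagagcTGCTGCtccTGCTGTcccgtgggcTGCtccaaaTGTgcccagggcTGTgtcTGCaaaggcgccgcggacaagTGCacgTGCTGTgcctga
Mt2: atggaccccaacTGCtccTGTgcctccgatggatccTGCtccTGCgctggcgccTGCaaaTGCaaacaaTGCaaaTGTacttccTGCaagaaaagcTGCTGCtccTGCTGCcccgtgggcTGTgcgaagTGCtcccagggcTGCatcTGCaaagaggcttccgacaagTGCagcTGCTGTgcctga
Mt3: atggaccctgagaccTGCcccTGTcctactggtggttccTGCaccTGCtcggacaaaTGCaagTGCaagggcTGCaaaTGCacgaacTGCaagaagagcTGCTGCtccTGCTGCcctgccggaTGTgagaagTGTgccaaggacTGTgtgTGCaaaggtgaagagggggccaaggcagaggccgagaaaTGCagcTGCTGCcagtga

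Each of the 3 sequences held 20 cysteine codons. These were 32.8% of the 61 codons of *Mt1* and of *Mt2*, and 29.4% of the 68 codons of *Mt3*, which has additional codons near both ends. The coding sequence of *Mt1* lies in chr8:94179311-94180193, that of *Mt2* in chr8:94172848-94173427 and that of *Mt3* in chr8:94152800-94154010. *Mt1* and *Mt2* shared 79.2% identity over 192 nt and *Mt3* and *Mt1* 73.4% over 158 nt. Outside the family, a transcript of *Pip5k1a*, with 1655 reads, matched *Mt2* at 74.6% over 319 nt and *Mt3* at 90.2% over 41 nt, a stretch shorter than a read of 100 bp.

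*Mt3* was the metallothionein with the most reads in every library, *Mt1* was detected at a low level in all 9, and *Mt2* was close to absent. Summed over the libraries, 712 reads were counted on *Mt3*, 87 on *Mt1*, 2 on *Mt2* and 0 on *Mt4*. A normalized count is the read count divided by the size factor of its library. Per kilobase of annotated exon, the mean normalized count was 72.1 ± 28.0 (SD, n = 9) for *Mt3*, 7.06 ± 2.65 (SD, n = 9) for *Mt1* and 0.284 ± 0.853 (SD, n = 9) for *Mt2*. The median over the 17539 protein-coding genes with any read was 15.3 on this scale. *Mt3* ranked 2612 from the top with 85.1% of these genes below it, *Mt1* ranked 10806 with 38.4% below, and *Mt2* ranked 15665 with 10.7% below.

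The libraries are numbered here in the order of the deposited columns, with LacZ/LacZ as 1 to 3, LacZ/+ as 4 to 6 and +/+ as 7 to 9. They held between 1692963 and 5942192 reads on genes, and the shallowest were library 7 of +/+ and library 4 of LacZ/+, with 2584074 reads. One read was worth 2.59 normalized counts in library 7 and 0.702 in library 8, so that 0 reads allow a normalized count of up to 7.76 in the former and 2.11 in the latter. These limits, taken as 3 reads, and all intervals on reads cover counting error only. The labels do not say that the libraries of a genotype came from separate litters. The study's methods give very few litters per experiment in general, without naming those of the libraries. The p-values therefore measure only the spread between these libraries.

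The targeted gene does not back the labels. *Nkx2-9* had 28 reads in all, with 4 in the libraries labelled +/+, 11 in those labelled LacZ/+ and 13 in those labelled LacZ/LacZ. A loss of its RNA with the allele would give the reverse order. No library had more than 7 of these reads, and the shallow libraries 4 and 7 had 0. The reads cannot be placed inside or outside the replaced exon, so the labels need not give a falling count. Genotype names here therefore stand for the libraries labelled so, and every direction rests on the names of the deposited columns. The series title calls the material cortical, whereas the sample labels say midbrain. Midbrain markers were present, with *Otx2*, a transcription factor of forebrain and midbrain, at 205 to 329 normalized counts.

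The normalized counts of *Mt3* were 114, 70.9 and 121 in +/+, 106, 68.3 and 44.1 in LacZ/+, and 72.3, 45.7 and 49.0 in LacZ/LacZ. The highest LacZ/LacZ library lay just above the lowest +/+ library, so the groups overlapped, and 2 of 3 LacZ/LacZ libraries lay below every +/+ library. The group means were 102 ± 27.3 in +/+, 72.8 ± 31.2 in LacZ/+ and 55.6 ± 14.48 in LacZ/LacZ (SD, n = 3 each). In order of level LacZ/+ thus stood between the homozygotes, and neighbours in that order differed by less than the SD of LacZ/+.

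On the log2(normalized count + 1) scale, *Mt3* in the libraries labelled LacZ/LacZ minus those labelled +/+ was -0.85 ± 0.30 (SE). The sign of this and of every other genotype difference comes from the column names alone and was not checked by the targeted gene. The study lists *Mt3* with a positive log2 fold change, as it does genes that it calls upregulated in the mutant. Which direction holds could not be settled here. Without library 7 of +/+, the shallowest, the difference of *Mt3* in LacZ/LacZ minus +/+ was -0.76. LacZ/+ minus +/+ was -0.53 ± 0.30 (SE), and LacZ/LacZ minus LacZ/+ was -0.32 ± 0.30 (SE). Single libraries weighed on the last 2 differences, which were -0.22 without library 6 and -0.01 without library 4. Each genotype enters 2 of these differences, which are therefore not independent. In bulk tissue, fewer cells that express *Mt3* and less *Mt3* RNA per cell cannot be told apart.

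The share of all genes that the same fit calls gives the background for these values. Of the 16993 genes whose normalized counts averaged 5 or more, limma gave an unadjusted p under 0.05 for 441 genes (2.6%) between LacZ/LacZ and +/+, 473 (2.78%) between LacZ/+ and +/+ and 449 (2.64%) between LacZ/LacZ and LacZ/+. After Benjamini-Hochberg adjustment limma called 0 genes (0%) in each comparison. edgeR on the recovered reads also called 0 in each, and DESeq2 called 0, 1 and 0. Values of the genotypes did not overlap for 9.52% of genes between LacZ/LacZ and +/+, for 6.91% between LacZ/+ and +/+ and for 8.71% between LacZ/LacZ and LacZ/+. *Mt3* and *Mt1* passed the minimum, *Mt2* did not, and neither *Mt3* nor *Mt1* was among the genes without overlap in any comparison.

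For *Mt3*, the SD within a genotype, which includes differences between the pooled embryos, was 27.3 in +/+ where counting alone gave 12.02, 31.2 in LacZ/+ where it gave 9.43, and 14.48 in LacZ/LacZ where it gave 6.79. *Mt3* rested on 44 to 165 reads per library.

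*Mt1* had 2 to 17 reads per library. Its normalized counts were 7.76, 5.61 and 12.5 in +/+, 9.78, 10.2 and 11.4 in LacZ/+, and 10.5, 1.83 and 9.45 in LacZ/LacZ. Library 2 of LacZ/LacZ was the lowest, with 2 reads, and the other 8 libraries overlapped between genotypes. The means were 8.63 ± 3.53 in +/+, 10.5 ± 0.847 in LacZ/+ and 7.27 ± 4.74 in LacZ/LacZ (SD, n = 3 each).

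Counting alone gave an SD for *Mt1* of 3.33 in +/+, 3.37 in LacZ/+ and 2.43 in LacZ/LacZ, against observed values of 3.53, 0.847 and 4.74. The log2 difference of *Mt1* was -0.40 ± 0.58 (SE) for LacZ/LacZ minus +/+, 0.31 ± 0.58 for LacZ/+ minus +/+ and -0.71 ± 0.58 for LacZ/LacZ minus LacZ/+. Without library 2 the first of these differences was 0.25, of opposite sign. Without library 2 LacZ/LacZ minus LacZ/+ was -0.06.

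*Mt2* was counted only in library 1 of LacZ/LacZ, with 2 reads or 1.51 normalized counts. The remaining 8 libraries had 0 reads on *Mt2*, which allows up to 2.11 normalized counts in the deepest and 7.76 in the shallowest. No fold between genotypes is given for *Mt2*, since all groups lay under that limit.

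**Figure D1:**
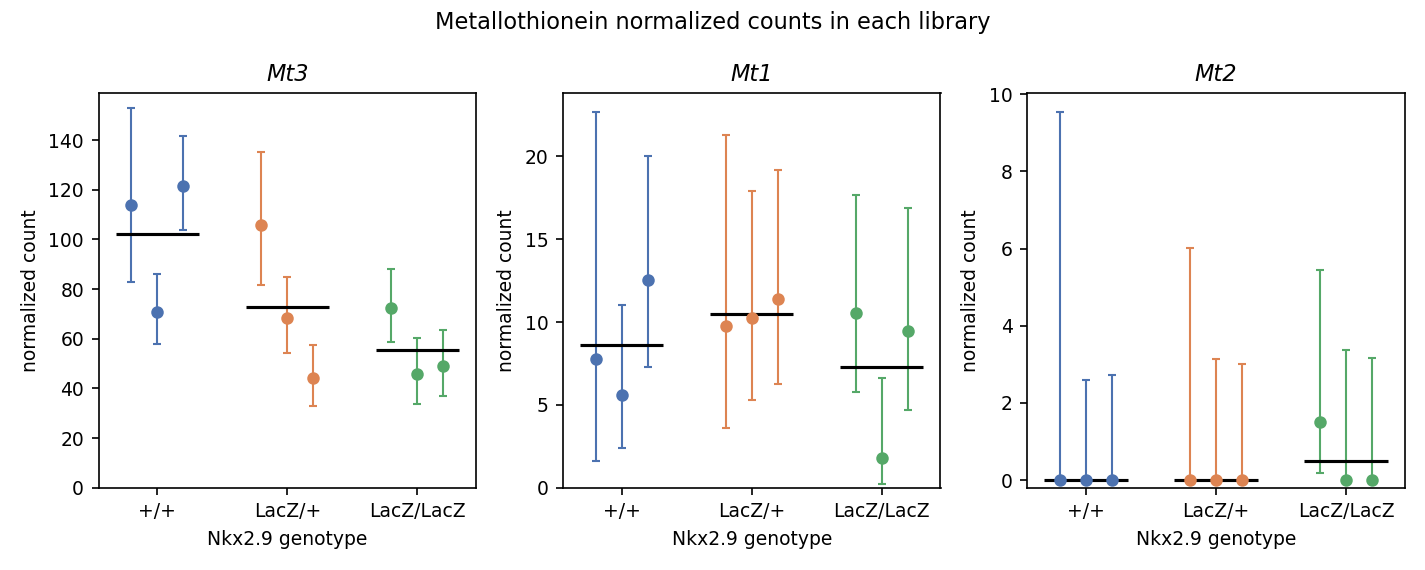
Normalized counts (y axis) of *Mt3*, *Mt1* and *Mt2* in the 9 libraries by *Nkx2.9* genotype (x axis), each panel with its own scale. Points are libraries, whiskers the exact 95% Poisson interval of the reads, and black lines the group means. For *Mt3* the +/+ libraries lie between 70.9 and 121 and the LacZ/LacZ libraries between 45.7 and 72.3, while *Mt1* overlaps in all genotypes and *Mt2* is above 0 in 1 library.

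The *Mt2* locus overlaps another annotated gene. *Gm45774*, an antisense gene with 0 reads, covers 355 of the 511 nt (69.5%) of the main *Mt2* transcript, at chr8:94170748-94173412. The strand setting of the read counting is not given in the sources used here, and without strand, reads from *Mt2* and *Gm45774* cannot be told apart. Of 16608 protein-coding genes with no exon base under a gene of the other strand, 30.7% had 3 or fewer reads in all libraries. That share was 18.8% of 69 genes covered over 60 to 80 percent and 71.4% of 77 genes covered over more than 80 percent, and *Mt2* is covered over 73.5% of its exon bases. The part of this overlap in the low *Mt2* count, and so in its level per kilobase and its rank, was not tested. *Mt1*, *Mt3* and *Mt4* had no exon base under such a gene.

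Library by library, *Mt3* exceeded *Mt1* per kilobase of exon in 9 of 9 libraries. The ratio was 17.1, 14.8 and 11.3 in +/+, 12.7, 7.79 and 4.51 in LacZ/+, and 8.02, 29.2 and 6.06 in LacZ/LacZ. The highest ratio came from library 2, where *Mt1* had 2 reads. On the log2 scale the mean ratio was 3.42 ± 0.83 (SD, n = 9), a geometric mean of 10.7. By genotype it was 3.83 ± 0.30 in +/+, 2.93 ± 0.75 in LacZ/+ and 3.49 ± 1.21 in LacZ/LacZ (SD, n = 3 each), and the values of all 3 genotypes overlapped. From the pooled reads the ratio per kilobase was 9.57, with an exact 95% counting interval from 7.65 to 12.1.

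The ratios to *Mt2* rest on its 2 reads and on its full exon length, of which 73.5% lies under an antisense gene. If reads there were not assigned to *Mt2*, these ratios are too high, by an amount that the counting intervals do not cover. Pooled over all libraries, *Mt3* per kilobase was 196 times *Mt2*, with an exact counting interval from 54.2 to 1625, and *Mt1* was 20.5 times *Mt2*, with an interval from 5.51 to 172.

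**Figure D2:**
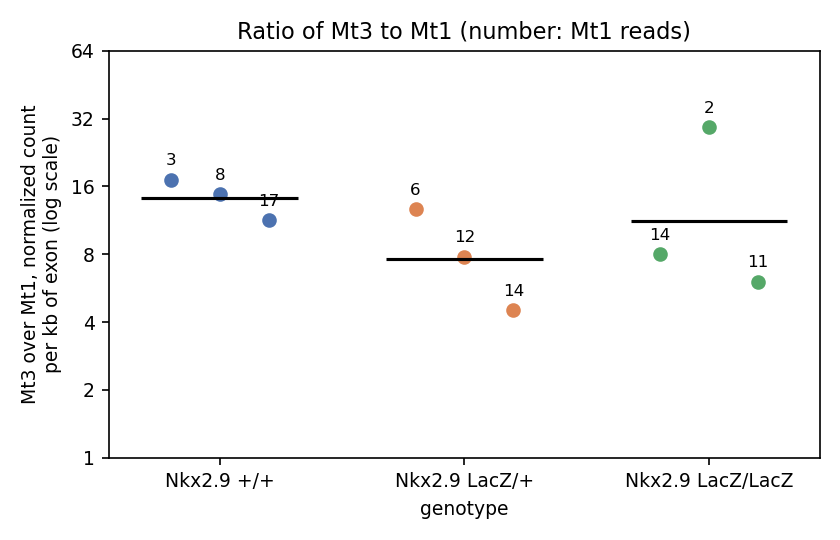
Ratio of *Mt3* to *Mt1* in normalized counts per kilobase of exon (y axis, log scale) in the 9 libraries by genotype (x axis). The number at each point is the count of *Mt1* reads behind it and black lines are geometric means. All points lie above 4, and the highest, at 29.2, rests on 2 *Mt1* reads.

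A relation between the members across libraries was not detectable. Over the 9 libraries, Pearson's r of *Mt3* and *Mt1* was 0.38 (exact permutation p = 0.340, two-sided) and Spearman's rho was 0.22 (exact permutation p = 0.581). Adjusted over the 3 relations computed here, these p-values were 0.356 and 0.581. Without libraries 2 and 8, which lie farthest from the median of *Mt1*, r was -0.15. Without library 2 alone it was -0.025, and within genotypes, as deviations from the genotype means, it was 0.37. *Mt2*, above 0 in 1 library, could not be correlated.

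Short mRNAs as a class also differed between libraries, and *Mt3*, with a longest transcript of 536 nt, is one. For 85 protein-coding genes with a longest transcript of at most 600 nt, the median log2 deviation from the mean of all libraries ran from -0.31 in library 3 of LacZ/LacZ to 0.37 in library 7 of +/+. For 3354 genes of 2501 to 4000 nt it stayed between -0.01 and 0.03. Over 234 genes of at most 800 nt, the median deviation was 0.31, -0.19 and 0.09 in +/+, 0.30, -0.10 and -0.01 in LacZ/+, and 0.14, -0.15 and -0.22 in LacZ/LacZ. Their median log2 difference was -0.15 for LacZ/LacZ minus +/+, and 3 of the 234 had an unadjusted p under 0.05 there, a smaller share than the 2.6% of all genes. It was -0.04 for LacZ/+ minus +/+ and -0.14 for LacZ/LacZ minus LacZ/+.

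The relation of *Mt3* to these short mRNAs was tested over the libraries. Neither this test nor that of *Mt1* below was planned beforehand. The r of *Mt3* with the median deviation of the short mRNAs was 0.75 (exact permutation p = 0.0261, two-sided, and 0.0784 adjusted over the 3 relations). Its rho was 0.65 (exact permutation p = 0.0666, adjusted 0.200). The relation therefore did not pass the correction, and the unadjusted p of r was also over 0.05 without library 2, 3, 4 or 7. Without libraries 7 and 4, the farthest from the median, r was 0.54. Within genotypes, as deviations from the genotype means, r was 0.79 (permutation p = 0.0140 over all pairings, unadjusted). That permutation ignored genotype, whereas the deviations cancel within each genotype. This p is therefore not exact, and no conclusion is drawn from it. For *Mt1* r was 0.38 (exact permutation p = 0.356) and rho was 0.33 (exact permutation p = 0.385), adjusted 0.356 and 0.578. The r of *Mt1* without the same libraries was 0.52, and within genotypes it was 0.28.

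Measured relative to the median of these short genes, *Mt3* in LacZ/LacZ minus +/+ was -0.70 in place of -0.85, and in LacZ/LacZ minus LacZ/+ it was -0.18 in place of -0.32. For LacZ/+ minus +/+ it was -0.52 in place of -0.53. The sign was kept in each case. This scaling was chosen after the data were seen.

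**Figure D3:**
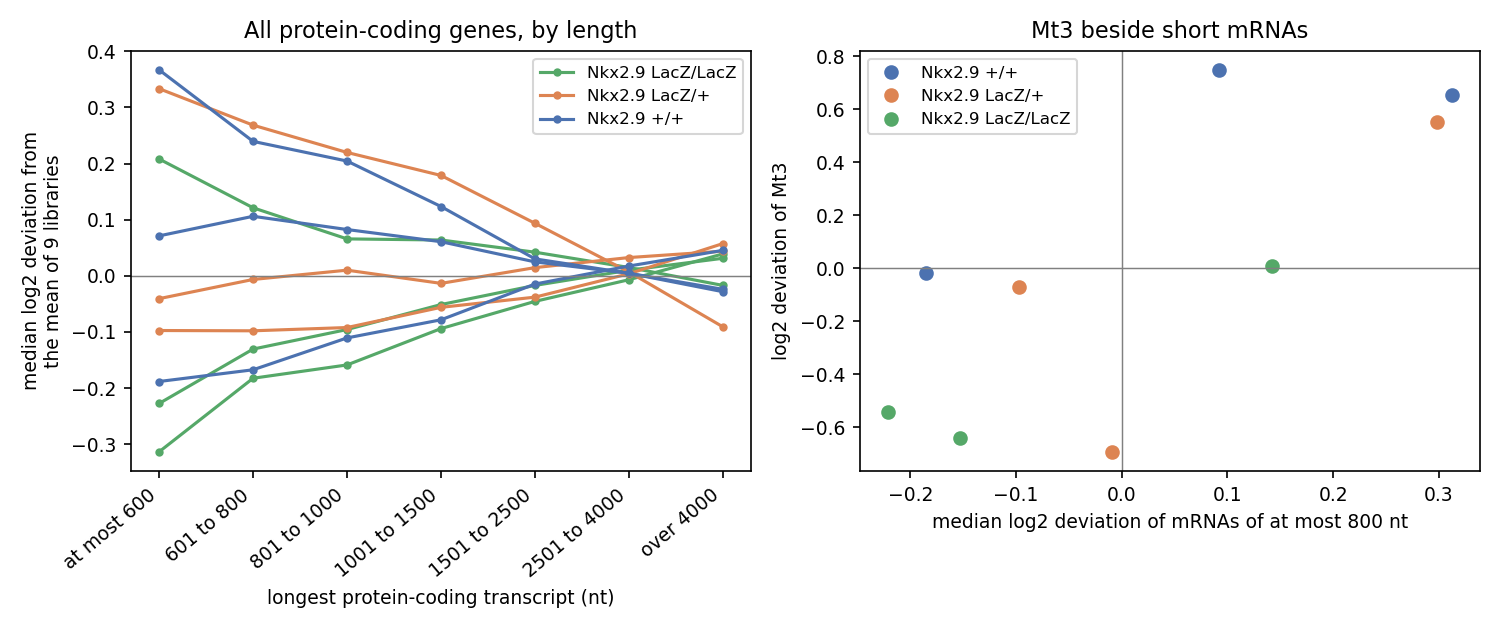
Left, the median log2 deviation from the mean of 9 libraries (y axis) of protein-coding genes in bins of transcript length in nt (x axis), with 1 line per library, coloured by genotype. Right, the log2 deviation of *Mt3* (y axis) against that of the median gene of at most 800 nt (x axis), with 1 point per library. The lines fan out toward short transcripts, from -0.31 to 0.37 in the shortest bin, and r on the right is 0.75, which did not pass the correction over the 3 relations.

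Sex genes differed between the genotypes too. *Xist*, the RNA of the inactive X chromosome, was at 4633, 4607 and 5182 normalized counts in LacZ/LacZ, at 79.9, 14.52 and 2929 in LacZ/+ and at 4342, 2580 and 47.1 in +/+. The Y-linked gene *Eif2s3y* had 0 reads in all LacZ/LacZ libraries and in library 7 of +/+, and 228 and 455 reads in libraries 8 and 9. In LacZ/+ it had 75, 345 and 2 reads in libraries 4 to 6. Among libraries with 0 *Eif2s3y* reads, *Mt3* was at 114 in the single +/+ library and at 72.3, 45.7 and 49.0 in LacZ/LacZ. In +/+ libraries 8 and 9, with Y-linked reads, it was at 70.9 and 121. In LacZ/+ it was at 106 and 68.3 in libraries 4 and 5 and at 44.1, the lowest of all 9, in library 6. With 1 +/+ library free of *Eif2s3y* reads, sex and genotype cannot be told apart.

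Radial glia and astrocytes are the cells best known for metallothionein expression in brain. Of 13 radial glia and astrocyte markers 11 passed the minimum, 0 had an unadjusted limma p under 0.05 in any comparison, where 2.6% to 2.78% of all genes had one, and none was at 0 in all libraries. Their summed normalized counts ran from 4374 to 4894 in +/+, from 4348 to 4720 in LacZ/+ and from 3986 to 4777 in LacZ/LacZ. *Vim* and *Fabp7*, the most abundant, are genes of radial glia, with log2 differences in LacZ/LacZ minus +/+ of -0.11 ± 0.13 and -0.25 ± 0.16 (SE). Over the 11 the median was -0.04, beside 0.01 over all genes, with 5 above 0 and 6 below. Neuron markers summed to 30513 to 32974 in +/+ and 32080 to 32283 in LacZ/LacZ, with 0 of 9 called beside the same shares of all genes.

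Of 6 midbrain markers, *En1* and *Pax7* had lower values in the libraries labelled LacZ/LacZ, as *Mt3* had. *En1*, a homeobox gene of the midbrain and its caudal border, was at 274 ± 48.6 in +/+ and 180 ± 19.6 in LacZ/LacZ, and *Pax7*, a gene of the dorsal midbrain, at 264 ± 49.4 and 173 ± 49.2 (SD, n = 3). These 2 had an unadjusted p under 0.05, beside 2.6% of all genes. The study singled out both from these libraries, so they are not independent evidence. It describes *En1*, *Pax7* and *En2* as upregulated in the mutant, opposite to the direction that the column names give. No direction is taken from the study. *En2*, also singled out there, had a difference of -0.44 ± 0.21 (SE). The other 3 lay on the opposite side of 0, *Otx2* at 0.04 ± 0.17, *Th* at 0.25 ± 0.33 and *Lmx1b* at 0.01 ± 0.21. The 6 summed to 1269 to 1396 in +/+, 1027 to 1675 in LacZ/+ and 1039 to 1190 in LacZ/LacZ. Choroid plexus markers summed to 155 to 194 in +/+ and 146 to 159 in LacZ/LacZ, and *Kl* was the 1 of 4 called, beside 2.6% of all genes, at 20.4 ± 9.25 and 7.90 ± 3.04 (SD, n = 3). Blood markers summed to 1479 to 2165 in +/+ and 1537 to 1881 in LacZ/LacZ, and 0 of 7 were called, again beside 2.6%. The part of these cell types and regions in the *Mt3* values was not tested.

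Genes that handle the same metals were called at about the share of all genes. The list comprised 10 zinc exporters of the Slc30 family, 14 zinc importers of the Slc39 family, *Mtf1* and 11 genes of copper handling, and 33 of the 36 passed the minimum. Between LacZ/LacZ and +/+, 1 of 33 had an unadjusted limma p under 0.05, beside 2.6% of all genes, and the median log2 difference was -0.02 beside 0.01 over all genes. Between LacZ/+ and +/+ it was 1 of 33 beside 2.78%, with a median of -0.02 beside -0.01. Between LacZ/LacZ and LacZ/+ it was 0 of 33 beside 2.64%, with a median of -0.04 beside 0.02.

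*Slc39a7*, which releases zinc from the endoplasmic reticulum and Golgi, was the gene called between LacZ/LacZ and +/+. Its normalized counts were 40.6 ± 7.49 in +/+, 33.7 ± 3.78 in LacZ/+ and 25.4 ± 4.33 in LacZ/LacZ (SD, n = 3 each), a log2 difference of -0.65 ± 0.27 (SE). *Cox17*, the copper chaperone of cytochrome c oxidase, was called between LacZ/+ and +/+ at 58.0 ± 16.2 against 33.4 ± 11.3, a difference of 0.80 ± 0.29 (SE). Neither passed the adjustment over all genes. Without library 3 the count between LacZ/LacZ and +/+ was 0 and without library 8 it was 3.

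*Mtf1*, which drives *Mt1* and *Mt2* in response to zinc, was at 127 ± 13.7 in +/+, 130 ± 15.4 in LacZ/+ and 126 ± 8.42 in LacZ/LacZ. Its log2 difference in LacZ/LacZ minus +/+ was -0.01 ± 0.16 (SE). *Slc30a9* and *Slc30a7* were the most abundant exporters, with differences of 0.05 ± 0.13 and 0.07 ± 0.16, and 0 of 8 exporters tested were called in any comparison. *Slc39a10* and *Slc39a6* led the importers of the plasma membrane, with 0.02 ± 0.15 and -0.22 ± 0.13. *Sod1*, the copper and zinc superoxide dismutase, had 0.06 ± 0.13, and the copper pump *Atp7a* had 0.25 ± 0.15.

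**Figure D4:**
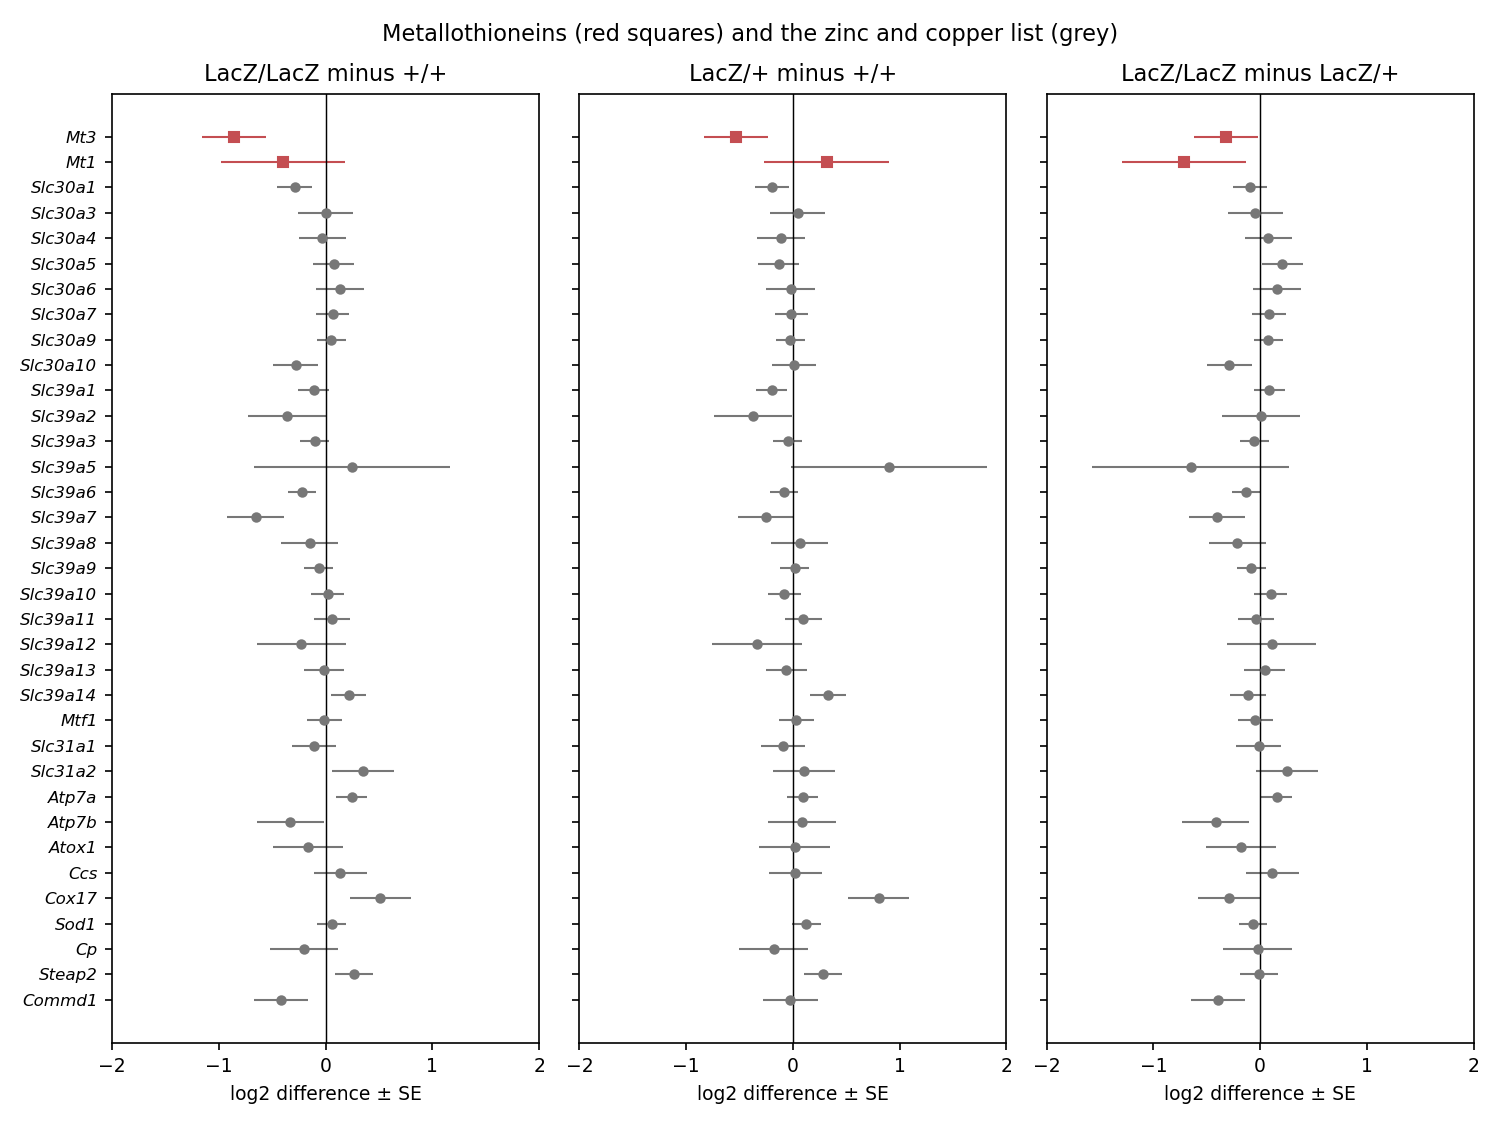
Log2 difference with its SE (x axis) of *Mt3* and *Mt1* (red squares) and of the 33 tested genes of the zinc and copper list (grey points, 1 per row on the y axis) in the 3 genotype comparisons. The difference of *Mt3* is -0.85 in LacZ/LacZ minus +/+, while the list has a median of -0.02 there and 1 of 33 genes, *Slc39a7*, with an unadjusted p under 0.05.

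Lists for the stimuli that induce metallothioneins were read in the same way. Of the 10 glucocorticoid response genes, 0 were called in any comparison, beside 2.6% to 2.78% of all genes, and the median difference in LacZ/LacZ minus +/+ was -0.04, beside 0.01 over all genes. Of 8 tested genes of the oxidative stress response, *Hmox1*, a heme oxygenase, was called between LacZ/LacZ and +/+ at -1.02 ± 0.44 (SE), beside 2.6% of all genes. It had 143 reads in all. The median of the 8 was 0.03 there, with 5 above 0 and 3 below. *Gsr*, glutathione reductase, was called between LacZ/+ and +/+ at 0.46 ± 0.17 (SE), beside 2.78%. The 9 tested heat shock and immediate early genes had a median of -0.40 in LacZ/LacZ minus +/+, beside 0.01 over all genes, and 0 of 9 were called, beside 2.6%. All 9 values lay below 0. The most abundant were the chaperone gene *Hsph1*, with a difference of -0.04 ± 0.14 (SE), and the co-chaperone gene *Dnajb1*, with -0.34 ± 0.16 (SE).

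The metallothionein genes lie in 1 cluster of 43.1 kb on the plus strand of chromosome 8 in GRCm38, in the order *Mt4*, *Mt3*, *Mt2* and *Mt1*. *Mt3* spans chr8:94152607-94154146, *Mt2* chr8:94172664-94173568 and *Mt1* chr8:94179082-94180327, each with 3 exons in its main transcript. The protein-coding neighbours within 100 kb were *Ogfod1*, *Bbs2* and *Nup93*, at mean normalized counts of 117, 126 and 235. Their log2 differences in LacZ/LacZ minus +/+ were -0.09 ± 0.20, 0.19 ± 0.17 and 0.08 ± 0.15 (SE), and none of the 3 had an unadjusted limma p under 0.05 in any comparison. Of the noncoding neighbours, *Gm45873*, which overlaps *Ogfod1* on the same strand, was lower in LacZ/+ than in +/+ at -1.82 ± 0.70 (SE) and higher in LacZ/LacZ than in LacZ/+ at 1.74 ± 0.70 (SE), both with an unadjusted p under 0.05, on 54 reads in all. *Rpl10-ps5*, a pseudogene inside *Nup93*, and *Gm45804* were not called, and *Gm39228* had 0 reads.

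The upstream sequences of the members are shown because *Mt1* and *Mt2* are the textbook targets of MTF1. They are the 250 bases before the start given by RefSeq on GRCm38.p6, plus strand, with matches to the metal response element core TGCACNC or TGCGCNC on either strand in capitals. They lie at chr8:94178839-94179088 for *Mt1*, chr8:94172368-94172617 for *Mt2* and chr8:94152357-94152606 for *Mt3*.

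Mt1: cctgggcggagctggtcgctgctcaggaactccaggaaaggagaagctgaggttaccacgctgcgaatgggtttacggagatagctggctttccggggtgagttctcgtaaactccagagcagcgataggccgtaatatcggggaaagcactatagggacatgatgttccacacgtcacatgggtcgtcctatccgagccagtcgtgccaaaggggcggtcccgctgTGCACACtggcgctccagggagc
Mt2: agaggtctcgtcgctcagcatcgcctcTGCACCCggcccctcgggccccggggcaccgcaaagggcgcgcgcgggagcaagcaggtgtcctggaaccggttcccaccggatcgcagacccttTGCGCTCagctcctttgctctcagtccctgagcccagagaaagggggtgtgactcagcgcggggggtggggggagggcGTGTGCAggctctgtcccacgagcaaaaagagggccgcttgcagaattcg
Mt3: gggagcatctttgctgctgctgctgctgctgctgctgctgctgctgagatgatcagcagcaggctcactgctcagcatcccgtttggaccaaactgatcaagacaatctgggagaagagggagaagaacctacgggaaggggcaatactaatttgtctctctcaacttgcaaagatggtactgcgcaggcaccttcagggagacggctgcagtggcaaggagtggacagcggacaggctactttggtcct

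There were 3 matches for *Mt2*, 1 for *Mt1* and 0 for *Mt3* in these windows. Of 32851 upstream windows of the same length, 21.4% held at least 1 match and 1.26% held at least 3. The count in a window depends on where the start is annotated, so it is not a count for the whole promoter. Further matches lay in the annotated mRNA ahead of the start codon, 4 in the 229 nt of *Mt1*, 3 in the 184 nt of *Mt2* and 3 in the 193 nt of *Mt3*. The shares above do not cover these stretches. The bases between the *Mt2* window and the start of its annotated mRNA lie in neither stretch. A match is only a run of letters, and binding was not measured.

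The genes whose log2 values followed *Mt3* most closely over the 9 libraries, among 12489 genes whose normalized counts averaged 20 or more, were *Gm15427*, *Crb2*, *Fastk*, *Armc6* and *Snora78*, with r from 0.93 to 0.95. *Gm15427*, a processed pseudogene of 531 nt, was at 96.2 in +/+, 71.1 in LacZ/+ and 54.4 in LacZ/LacZ. *Crb2*, an apical polarity gene of the neuroepithelium, was at 94.6, 88.5 and 79.2, and the small nucleolar RNA *Snora78*, of 128 nt, at 289, 213 and 189. For *Mt1* they were *Tma7*, *Gm10060*, *Cops7b*, *Fkbp1a* and *Gpr158*, with r from 0.91 to 0.95, and no gene was on both lists. These are the highest of many correlations over 9 points that share library depth, and they are given as a description. The study listed *Gm15427* and *Snora78*, like *Mt3*, by their low p between LacZ/LacZ and +/+. Their likeness to *Mt3* is therefore not independent of how *Mt3* was chosen.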

How the data were processed

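RNA of E14.5 midbrain was sequenced in 9 libraries. Per the methods, ribosomal RNA was removed before paired-end sequencing of 100 bp, and the authors used Hisat2 for alignment to GRCm38 and featureCounts for counting, whereas the labels describe an mRNA protocol. Versions and strand setting are not given in the sources used here. The deposited signal per gene is a normalized count, made by the authors by dividing read counts by DESeq2 size factors, and 100% of the 210686 values above 0 came out as whole reads (tolerance 1e-06 reads). The authors' 3 tables of DESeq2 comparisons, with fold changes and p-values, were not used. Columns name the genotype but no replicate.

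All genes whose normalized counts averaged 5 or more were fitted in limma 3.58.1 (R 4.3.3) on log2(normalized count + 1), with 1 genotype factor over 9 libraries, a mean-variance trend and Benjamini-Hochberg adjustment. The pseudocount understates changes of low genes such as *Mt1*. edgeR 4.0.16 and DESeq2 1.42.0 on the recovered reads, other pseudocounts, minima and scalings, and leaving out each library were alternatives. Of the gene identifiers, 51719 matched GENCODE M21, which gave positions and exon lengths, and sequences came from GENCODE and RefSeq. Correlations used exact permutation tests.

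The members and gene lists were chosen with earlier results of these data known. Genes named are the family, *Nkx2-9*, the leading or called genes of each list (2 with the highest mean, or an unadjusted p under 0.05), neighbours within 100 kb, and the 5 genes most correlated with a member. *Th*, *Lmx1b*, *Pip5k1a*, *Xist* and *Eif2s3y* were added after the data were seen. The lists of endothelial, meninges, microglia and cerebral cortex markers are given in the closing section.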

Additional observations from a re-analysis of the deposited data

How the results depend on the processing

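The log2 difference of *Mt3* kept its sign in all 17 alternatives of each comparison, from -1.10 to -0.71 when a library was left out in LacZ/LacZ minus +/+, from -0.84 to -0.22 in LacZ/+ minus +/+ and from -0.63 to -0.01 in LacZ/LacZ minus LacZ/+, where the smallest value came without library 4. That of *Mt1* ran from -0.76 to 0.25, from 0.08 to 0.59 and from -1.08 to -0.06, where both comparisons of LacZ/LacZ were highest without library 2 and lowest without library 1. With exon length replaced by the longest transcript, the log2 ratio of *Mt3* to *Mt1* was 4.21, and by the shortest coding one 3.51. It ran from 3.24 to 3.57 without 1 library. No paired analysis was possible because the deposited columns carry the genotype but no replicate number. For *Mt2* the log2 difference, the ratio per library and the correlations have no value, since it is above 0 in 1 library.

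Genes with an unadjusted p under 0.05 numbered 1135, 1137 and 1132 with no minimum, and 263, 242 and 288 with a minimum of 20, for LacZ/LacZ against +/+, LacZ/+ against +/+ and LacZ/LacZ against LacZ/+. For LacZ/+ against +/+ there were 280 with only those libraries and 264 with DESeq2. Without 1 library the counts ran from 283 to 827 in the first comparison, from 375 to 933 in the second and from 293 to 740 in the third, with the highest without libraries 8, 4 and 5. The zinc and copper list had 0 called genes with DESeq2 in LacZ/LacZ against +/+ and 0 to 3 without 1 library. In LacZ/+ against +/+ it had 2 with no minimum and 0 to 2 without 1 library, with 0 without library 7 and 2 without library 4 or 9, and in LacZ/LacZ against LacZ/+ it had 1 with no minimum and 0 without any 1 library. Fewer or more genes tested is part of the changes with the minimum, and otherwise the cause was not tested. The r of *Mt3* with *Mt1* ran from -0.025, without library 2, to 0.57. The r of *Mt3* with short mRNAs ran from 0.67 to 0.82 without 1 library, with an unadjusted exact permutation p over 0.05 without library 2, 3, 4 or 7, and that of *Mt1* ran from 0.21 to 0.48.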

Other observations

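Marker lists of other cell types and regions complete the description of the tissue. Endothelial and pericyte markers, led by *Rgs5* and *Kdr*, summed to 1042 to 1258 normalized counts in +/+, 1168 to 1259 in LacZ/+ and 1093 to 1292 in LacZ/LacZ, with 0 of 9 called by limma in any comparison, beside 2.6% to 2.78% of all genes. Microglia markers, led by *Csf1r*, summed to 81.0 to 93.1 in +/+, 68.5 to 84.7 in LacZ/+ and 80.5 to 110 in LacZ/LacZ, with 0 of 4 called beside the same shares. Meninges markers summed to 212 to 319 in +/+, 173 to 198 in LacZ/+ and 172 to 269 in LacZ/LacZ. *Col1a1*, a fibrillar collagen, was the 1 of 4 with an unadjusted p under 0.05, beside 2.78% of all genes between LacZ/+ and +/+, at 71.4 ± 14.1 in +/+ and 41.7 ± 9.38 in LacZ/+ (SD, n = 3). Of the 3 cerebral cortex markers that passed the minimum, 1 had an unadjusted p under 0.05 between LacZ/LacZ and +/+, beside 2.6% of all genes. It was *Neurod6*, a transcription factor of differentiating neurons, at 33.9 ± 11.6 in +/+ and 55.5 ± 16.005 in LacZ/LacZ (SD, n = 3).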
